A study of Mus musculus with 4 samples.

Results

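The regions described here are the peaks of 1 FLAG library, called EGFP_OK after its title, that overlapped no peak of the Pax6 or Etv6 FLAG libraries and whose summit lay inside a peak of histone H3 dimethylated at lysine 4 (H3K4me2). The summit is the base of highest tag pile-up in a peak, and an overlap meant at least 1 shared base. On chromosomes 1 to 19, 3014 of 27730 EGFP_OK peaks met this rule, which is 10.9% (exact 95% binomial interval 10.5 to 11.2). They were 14.2% (13.7 to 14.6) of the 21289 EGFP_OK peaks without a Pax6 or Etv6 peak, and 39.9% (38.8 to 41.0) of the 7561 EGFP_OK summits inside H3K4me2. The members were thus chosen by measured peak positions, and their number is no finding in itself. As background, 27.3% of EGFP_OK summits in the whole list lay in H3K4me2 and 76.8% of EGFP_OK peaks had no Pax6 or Etv6 partner.

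Chromatin immunoprecipitation and sequencing (ChIP-seq) had been applied to mouse neural progenitor-like cells, made from embryonic stem cells of strain 129/SvJ and used at passages 15 to 18, in a study of transcription factors that oppose dedifferentiation. For the EGFP_OK, Pax6 and Etv6 libraries the M2 antibody was used, which binds FLAG, a short peptide tag fused to a protein of interest. The remaining library was made with an antibody against H3K4me2. Per the labels, the cells of all libraries had been expanded with EGF and FGF-2, each at 10 ng/ml. Titles name N31 for the EGFP_OK and H3K4me2 libraries and NS for the Pax6 and Etv6 libraries. The H3K4me2 title also names Oct4, EGFP and 0 hr. The sources used here do not say which protein carried the tag in the EGFP_OK library, nor by which vector or in how many clones. Each group held 1 library and there was no untagged or input control. No value therefore has a replicate check, no difference between groups could be tested, and all intervals cover counting error only, with neighbouring peaks not independent. A difference between the tagged proteins cannot be told apart from one between N31 and NS cells.

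As background, H3K4me2 is laid down on the nucleosomes of active and poised promoters and of distal enhancers, so that a factor's summit inside such a peak lies in chromatin carrying a regulatory mark. Pax6 is a paired-box and homeobox factor of forebrain and eye progenitors, and Etv6 is an ETS-family factor known mainly as a transcriptional repressor. Regions are given by position in mouse build mm9. No genome or annotation of that build was used here, so no gene or sequence is attached to them.

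The EGFP_OK-only peaks inside H3K4me2 were of ordinary size for their list and had lower fold enrichment than their unmarked counterparts. They held a median of 48 tags (95% interval of the median 47 to 49), with 28 at the 10th percentile, 110 at the 90th and a range of 19 to 414. The 18275 EGFP_OK-only peaks outside H3K4me2 held a median of 46 tags (46 to 47). The authors' fold enrichment, which sets the height of the summit against the local background of the same library, had a median of 6.42 (6.32 to 6.53) and ran from 2.95 to 20.64. It was 7.22 (7.12 to 7.26) in EGFP_OK-only peaks outside H3K4me2. The 4547 EGFP_OK peaks inside H3K4me2 that did overlap Pax6 or Etv6, called shared peaks below, had a median of 6.32 (6.23 to 6.32), and the 1894 peaks with such a partner outside H3K4me2 had 7.24 (7.06 to 7.42). A fold of at least 10 was reached by 330 of the 3014 regions, or 10.9% (9.86 to 12.1), against 17.9% (17.4 to 18.5) of the EGFP_OK-only peaks outside the mark. Lower fold thus went with lying inside H3K4me2, with or without a Pax6 or Etv6 partner. Tag counts inside and outside the mark were similar only for the EGFP_OK-only peaks. Peaks with a partner held a median of 51 tags (50 to 53) inside and 55 (53 to 58) outside. Whether the local background was higher in marked chromatin was not tested.

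**Figure D1:**
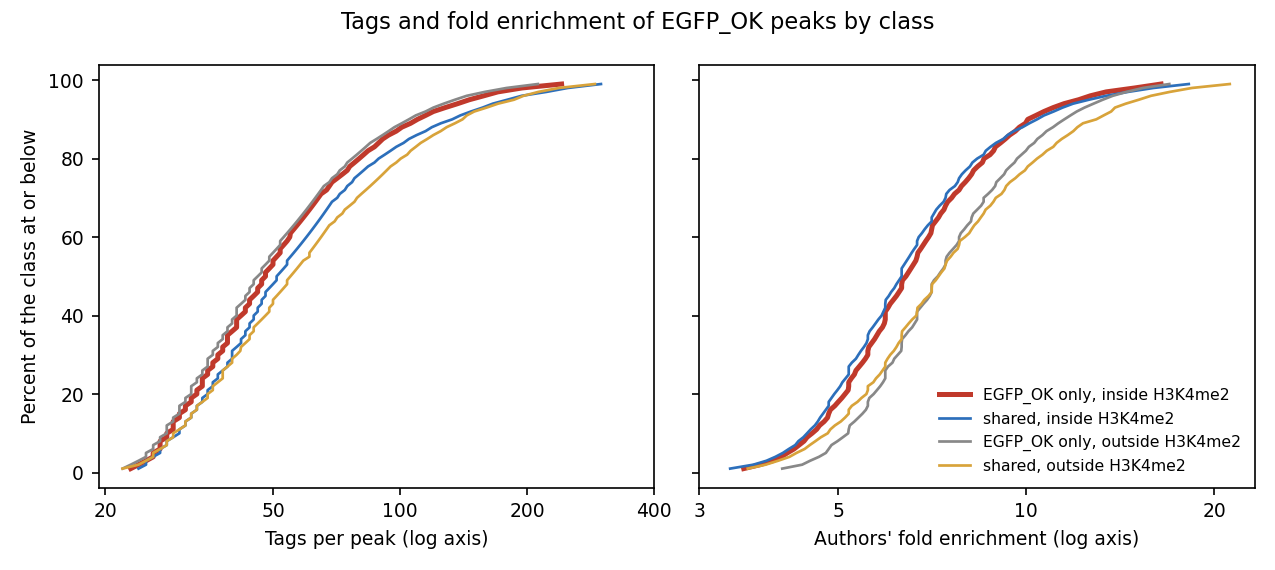
Cumulative percent of EGFP_OK peaks (vertical axis) at or below a given tag count (left, log axis) or fold enrichment (right, log axis) in 4 classes, shown from the 1st to the 99th percentile. The thick line for the EGFP_OK-only peaks inside H3K4me2 (median 48 tags, 6.42-fold) follows the unmarked EGFP_OK-only peaks (46 tags, 7.22-fold) in tags but the shared marked peaks (6.32-fold) in fold.

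The score that MACS gives a peak, its p-value as −log10 multiplied by 10, had a median of 84.2 (82.0 to 86.7) in these regions. It was 93.6 (92.6 to 94.9) in EGFP_OK-only peaks outside the mark and 92.0 (90.1 to 93.5) in shared marked peaks. The caller kept peaks from a score of 50 upwards, and 632 of the 3014 regions, 20.97% (19.5 to 22.5), had a score under 60. Ranked by fold, 26.6% (24.7 to 28.5) of the lowest 10% of EGFP_OK-only peaks lay inside H3K4me2, against 9.02% (7.84 to 10.3) of the highest 10%. Ranked by score the same shares were 16.4% (14.8 to 17.99) and 11.6% (10.3 to 13.1). These values describe the ranking that went into the calls and carry no test. The rule's limits ran through peaks of the following values. The 28 regions with a Pax6 or Etv6 peak within 100 bp but no overlap had a median of 48 tags, 6.11-fold and a score of 86.5, and the 29 marked peaks excluded for an overlap of at most 100 bp had 46 tags, 5.93-fold and a score of 68.2. The 64 regions with a summit in the outermost 50 bp of an H3K4me2 peak had a median of 50 tags, 6.725-fold and a score of 98.9, and the 60 EGFP_OK-only peaks with a summit at most 50 bp outside one had 42 tags, 6.545-fold and a score of 86.6.

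Where in the H3K4me2 peak the EGFP_OK summit lay was not set directly, since the rule asked only that it be inside. The bar on Pax6 and Etv6 overlap could still shift the position, and by how much was not tested. The median distance given below became 335 bp with exclusion by 50% overlap and 305 bp with exclusion also within 1 kb. With Pax6 and Etv6 scores of at least 100 it was 339 bp. The summits gathered around the H3K4me2 summit. Their median distance from it was 318 bp (305 to 331), where positions spread evenly over the same H3K4me2 peaks would have a median of 454 bp. Within 500 bp lay 67.8% (66.05 to 69.4), against 53.8% for even positions, and within 100 bp lay 15.7% (14.4 to 17.1), against 11.8%. In bins of 100 bp the first 3 bins held 15.5%, 15.6% and 16.2% of the summits, and from 400 bp outwards each bin up to 1999 bp held less than even spacing gives. Only 4.58% (3.86 to 5.39) lay within 100 bp of an end of the H3K4me2 peak.

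Pooled over all H3K4me2 peaks the regions sat closer to the H3K4me2 summit than the shared peaks did, at 318 against 400 bp (387 to 413). Among H3K4me2 peaks of like width the order differed by class, and it was reversed with intervals apart only in the widest class. In H3K4me2 peaks over 3 kb wide the median distance was 798 bp (687 to 920) for the 681 EGFP_OK-only summits and 559 bp (533 to 581) for the 1783 shared summits. In peaks of 2 to 3 kb it was 432 bp (404 to 480) against 403 bp (380 to 422). In peaks of up to 1 kb it was 158 bp (139 to 178) against 117 bp (84 to 149). Peaks of 1 to 2 kb held the most EGFP_OK-only summits, 1240. Only there was the value lower for the EGFP_OK-only summits, 256.5 bp (244 to 274) against 287 bp (270 to 303). The intervals were apart in the widest class and overlapped in the others. EGFP_OK-only and shared summits are split by Pax6 and Etv6 overlap, and how far that split sets these distances was not tested. The shared summits also had a different profile, with their fullest bin, 13.5%, at 300 to 399 bp.

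**Figure D2:**
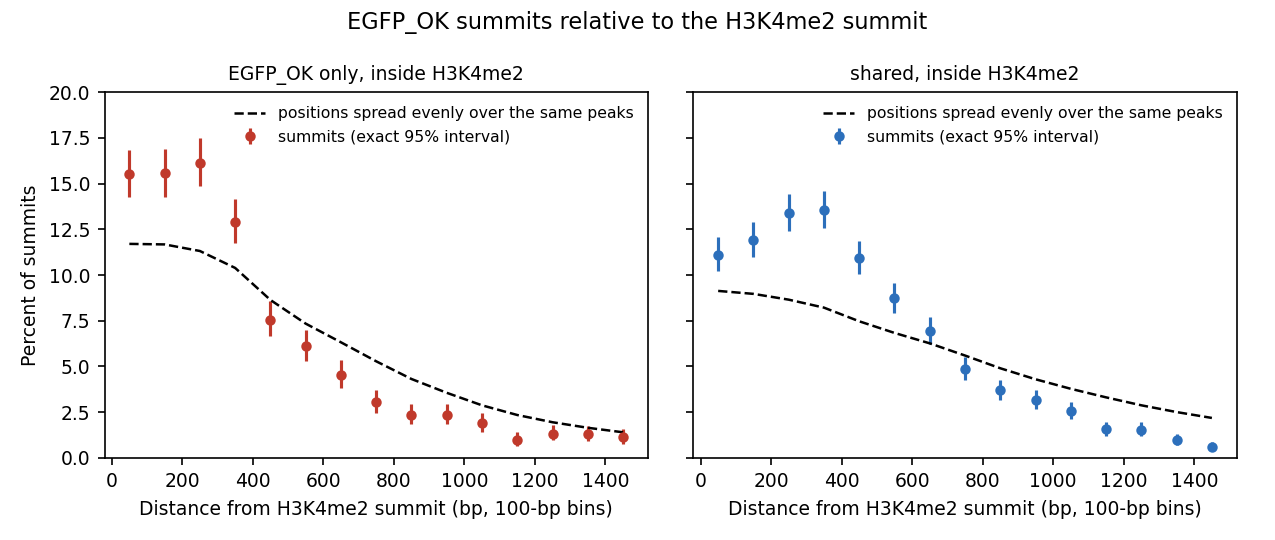
Percent of EGFP_OK summits (vertical axis) by distance from the H3K4me2 summit in 100-bp bins (horizontal axis, bp), for the EGFP_OK-only regions (left, 3014 summits) and the shared peaks (right, 4547 summits). Points carry exact 95% binomial intervals and the dashed line is the share that evenly spread positions would give; the EGFP_OK-only summits are level from 0 to 299 bp and the shared summits peak at 300 to 399 bp.

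The 3014 summits lay in 3000 different H3K4me2 peaks, or 6.18% (5.97 to 6.40) of the 48520 on these chromosomes. Of the 3000, 2986 held 1 such summit and 14 held 2, and 26 also held a shared EGFP_OK summit. The rule favours wide H3K4me2 peaks, since a wider peak has more positions in which a summit can lie. How much this adds to the differences in width and tags below was not tested. The H3K4me2 peaks concerned were somewhat wider and fuller than the typical one. Their median width was 1927.5 bp (1884 to 1984), against 1638 bp (1628 to 1649) over all H3K4me2 peaks, 1392 bp (1382 to 1403) for those with no FLAG summit and 2636.5 bp (2591 to 2685) for those with a shared EGFP_OK summit. They held a median of 155 H3K4me2 tags (149 to 162), against 122 over all H3K4me2 peaks and 264.5 (258 to 272) at the shared sites. In width and tags they came close to the 12263 H3K4me2 peaks with a Pax6 or Etv6 summit and no EGFP_OK summit, at 2020 bp (1997 to 2043) and 161 tags (157 to 164). The authors' fold of these H3K4me2 peaks was 5.58 (5.48 to 5.64), and 5.82 over the whole H3K4me2 list.

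The EGFP_OK-only summits were spread more evenly over weak and strong H3K4me2 peaks than the shared ones. Of the H3K4me2 peaks in the highest 10% by score, 7.38% (6.66 to 8.15) held an EGFP_OK-only summit, and of those in the lowest 10%, 4.43% (3.87 to 5.05) did. For shared summits the same shares were 22.2% (20.99 to 23.4) and 3.11% (2.64 to 3.64). By width, the share rose from 3.62% (3.25 to 4.02) of H3K4me2 peaks of up to 1 kb to 9.43% (8.76 to 10.1) of those over 3 kb, and for shared summits from 2.21% (1.93 to 2.53) to 24.9% (23.9 to 25.9). Wider peaks have more positions for a summit of either kind, and the shares are not corrected for this. An H3K4me2 peak of up to 1 kb held an EGFP_OK-only summit more often than a shared one, and a peak over 3 kb the reverse. Pax6 and Etv6 summits, which define the split, were themselves commoner in wide H3K4me2 peaks. Of those without an EGFP_OK summit, 13.2% of up to 1 kb and 57.4% of over 3 kb held one. How much of the contrast the split itself makes was not tested. Among the regions themselves the relation of EGFP_OK to H3K4me2 depended on the measure. Across the 3014 pairs, which share their libraries and are not independent replicates, Spearman's rho was -0.11 between the scores and 0.11 between the folds, and -0.26 between the EGFP_OK fold and the width of the H3K4me2 peak. The highest 10% of the regions by fold lay in H3K4me2 peaks with a median width of 1573 bp and 102 tags, and the lowest 10% in peaks of 2864 bp and 306.5 tags.

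**Figure D3:**
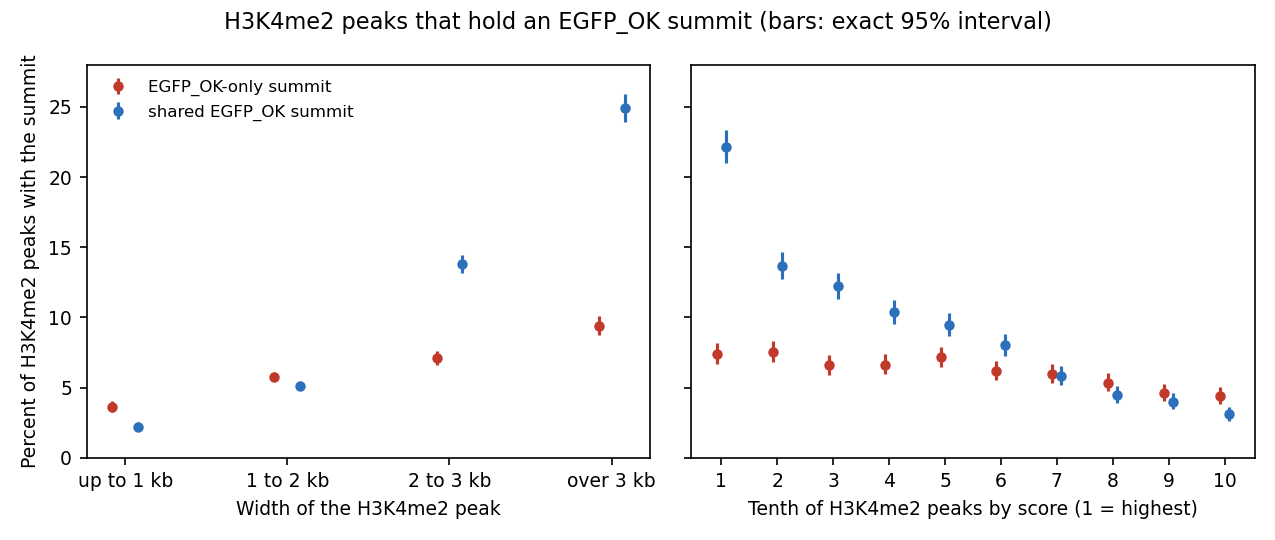
Percent of H3K4me2 peaks that held an EGFP_OK-only or a shared EGFP_OK summit (vertical axis), by width of the H3K4me2 peak (left) and by its rank in 10 equal parts by score (right, 1 is the highest); bars are exact 95% binomial intervals. The EGFP_OK-only share runs from 4.43% in the lowest part to 7.38% in the highest, and the shared one from 3.11% to 22.2%. The classes are split by overlap with a Pax6 or Etv6 peak, and Pax6 and Etv6 summits were commoner in wide H3K4me2 peaks.

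The rule barred Pax6 and Etv6 from the EGFP_OK peak itself but not from the rest of the same H3K4me2 peak. A Pax6 or Etv6 summit was found elsewhere in 212 of the 3000 H3K4me2 peaks, 7.07% (6.18 to 8.04), of which 198 held an Etv6 and 83 a Pax6 summit. Over all 48520 H3K4me2 peaks 34.7% held a Pax6 or Etv6 summit, and over those without an EGFP_OK summit 29.9%. The rule lowers the share in narrow H3K4me2 peaks, which the EGFP_OK peak nearly fills: it was 0 of 342 in those up to 1 kb, where a count of 0 allows up to 1.07% (exact upper bound). In H3K4me2 peaks over 3 kb it was 25.7% (22.4 to 29.2), against 57.4% (55.98 to 58.8) of those without an EGFP_OK summit, and how much of this gap the rule itself makes was not tested. The share moved with the rule's settings. It was 16.4% when only overlaps of at least 50% of the EGFP_OK peak excluded it, 1.90% when a Pax6 or Etv6 peak within 1 kb also did, and 2.32% when Pax6 and Etv6 peaks needed a score of at least 100. For the last value only Pax6 and Etv6 summits of that score were counted. It is therefore not comparable with the 34.7% and 29.9% above, which use the full lists. Where both were present, the nearest Etv6 summit was a median of 1894 bp (1783 to 2010) from the EGFP_OK summit over 199 regions, and the nearest Pax6 summit 2202 bp (1920 to 2379) over 83. The bar on overlap sets a lower limit to these distances.

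The next H3K4me2 peak along the chromosome was not directly constrained by the rule. It lay a median of 10014.5 bp (9549 to 10432) from the H3K4me2 peak with an EGFP_OK-only summit, and it held a Pax6 or Etv6 summit in 33.9% (32.2 to 35.6) of cases. Next to H3K4me2 peaks with no FLAG summit this share was 31.7% (31.1 to 32.2). It was 36.6% (35.7 to 37.4) next to those with a Pax6 or Etv6 but no EGFP_OK summit, and 40.3% (38.9 to 41.8) next to those with a shared EGFP_OK summit. The next H3K4me2 peak held an EGFP_OK summit of any kind in 15.6% (14.4 to 16.98) of cases, against 13.99% (13.6 to 14.4) next to H3K4me2 peaks with no FLAG summit, 15.3% (14.7 to 15.9) next to those with Pax6 or Etv6 alone and 19.3% (18.2 to 20.5) next to shared sites. Both values for EGFP_OK-only sites lay below those of shared sites. The classes are themselves split by Pax6 and Etv6 at the site, and the next H3K4me2 peak differed in width between them. Its median width was 1654 bp for EGFP_OK-only sites and 1572 bp for sites with no FLAG summit. For Pax6 or Etv6 alone it was 1749 bp, and for shared sites 1827.5 bp. Whether the shares followed these differences was not tested.

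Counting Etv6 peaks inside and outside the same H3K4me2 peak, Etv6 was nearer to these regions than to their unmarked counterparts. The nearest Etv6 peak was a median of 16618.5 bp (15114 to 17693) away, against 29152 bp (28434 to 29977) for EGFP_OK-only peaks outside the mark. Within 10 kb of an Etv6 peak lay 37.5% (35.8 to 39.3) of the regions, and 11.9% (10.8 to 13.1) were more than 100 kb from any, against 24.4% (23.8 to 25.02) of the unmarked peaks. With Pax6 and Etv6 peaks restricted to a score of at least 100, which also brings the number of regions that meet the rule to 4857, the median distance to Etv6 was 38389 bp. The nearest Pax6 peak was a median of 38134 bp (35920 to 40793) away, against 51281 bp (49892 to 52980). A median of 4 H3K4me2 peaks lay within 50 kb of a region and 2 within 50 kb of an unmarked EGFP_OK-only peak. Whether the shorter distances went with this density was not tested.

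Other EGFP_OK peaks were about as dense here as elsewhere. A median of 2 other EGFP_OK peaks lay within 50 kb of a region, as in each of the other EGFP_OK classes, and 18.7% (17.3 to 20.2) had none, against 20.4% (19.8 to 20.9) of the EGFP_OK-only peaks outside the mark. The nearest other EGFP_OK peak was itself inside H3K4me2 for 37.2% (35.5 to 38.98) of the regions and for 22.6% (21.96 to 23.2) of the unmarked EGFP_OK-only peaks, beside 27.3% in the whole list. For shared peaks inside H3K4me2 it was 42.5% (41.05 to 43.9), so a marked neighbour was not particular to these regions. The nearest peak was another region of the same kind for 15.6% (14.3 to 16.9), where such regions make up 10.9% of the list. It was such a region for 14.01% (13.01 to 15.1) of the shared marked peaks and 9.70% (9.28 to 10.1) of the unmarked EGFP_OK-only peaks. Another such region lay within 50 kb of 22.9% (21.4 to 24.4) and within 10 kb of 4.98% (4.23 to 5.81). With only EGFP_OK peaks of a score of at least 100, the share within 50 kb was 9.44%.

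How far the absence of a Pax6 or Etv6 peak can be read depends on depth. The EGFP_OK library kept 21498324 tags after removal of duplicates, Etv6 24071748, H3K4me2 24550365 and Pax6 5288154. Scaled by kept tags, the median region of 48 tags would hold 53.7 tags in the Etv6 library, where the median peak held 54 and the weakest 18. The same region would hold 11.8 tags in the Pax6 library, where the median peak held 19 and the weakest 10. For 1114 regions, 36.96% (35.2 to 38.7), the scaled count was under that of the weakest Pax6 peak. Pax6 binding of equal strength would there hold fewer tags than any Pax6 peak called at this depth. A scaled count under the weakest Etv6 peak was found for 0 of the 3014. That was fixed beforehand, since the weakest region held 19 tags and the Etv6 library is deeper. A scaled count above the weakest peak does not show that a peak would be called there. The 10th percentile of the Etv6 peaks was 31 tags. With only Pax6 and Etv6 peaks of a score of at least 100 as grounds for exclusion, 4857 EGFP_OK peaks, 17.5%, met the rule.

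The 10 highest-scoring regions held between 239 and 414 EGFP_OK tags at 8.87-fold to 19.83-fold. They are shown as the strongest EGFP_OK peaks by score in marked chromatin without a Pax6 or Etv6 peak. They ranked between 13 and 79 among all EGFP_OK peaks by score. Their H3K4me2 peaks ranked from 10462 to 42705 of 48520 by score. The highest lay on chromosome 14 from 118628789 to 118630595, with 387 tags at 15.41-fold, and its summit at 118629575 was 1023 bp from the summit of an H3K4me2 peak with 90 tags. A region on chromosome 3 from 140774816 to 140776705 followed, with 348 tags at 13.68-fold and its summit 393 bp from that of an H3K4me2 peak with 110 tags. On chromosome 15 a region from 52798706 to 52800557 held 318 tags at 18.56-fold, and its summit was 26 bp from that of an H3K4me2 peak with 72 tags. In 4 of the 10 the summits of both marks lay within 100 bp of each other. Besides the one on chromosome 15 these were chromosome 14 from 37538836 to 37540656 (278 EGFP_OK and 34 H3K4me2 tags), chromosome 3 from 56956614 to 56958543 (339 and 56 tags) and chromosome 2 from 113884912 to 113887163 (300 and 34 tags). Each of these 4 H3K4me2 peaks was narrower than the EGFP_OK peak on it. This was not particular to them, as it failed only for the regions of rank 7 and 8 by score among the 10.

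Of the remaining regions of the 10, the one on chromosome 6 from 85024463 to 85026025 had the highest fold, 19.83, with 239 tags. Its H3K4me2 peak, with 148 tags and 8.54-fold, had the highest H3K4me2 rank of the 10, and an Etv6 peak lay 4811 bp away. The region on chromosome 3 from 143313699 to 143315464 (268 tags, 16.24-fold) also had an Etv6 peak close by, at 5274 bp. The others were chromosome 1 from 115599407 to 115600999 (257 tags, 16.72-fold) and chromosome 6 from 110941827 to 110944109, which held the most EGFP_OK tags of all, 414, at 8.87-fold. Pax6 peaks were farther away, between 18784 and 334376 bp from the 10 regions. None of the 10 had a Pax6 peak within 10 kb of its summit.

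**Figure D4:**
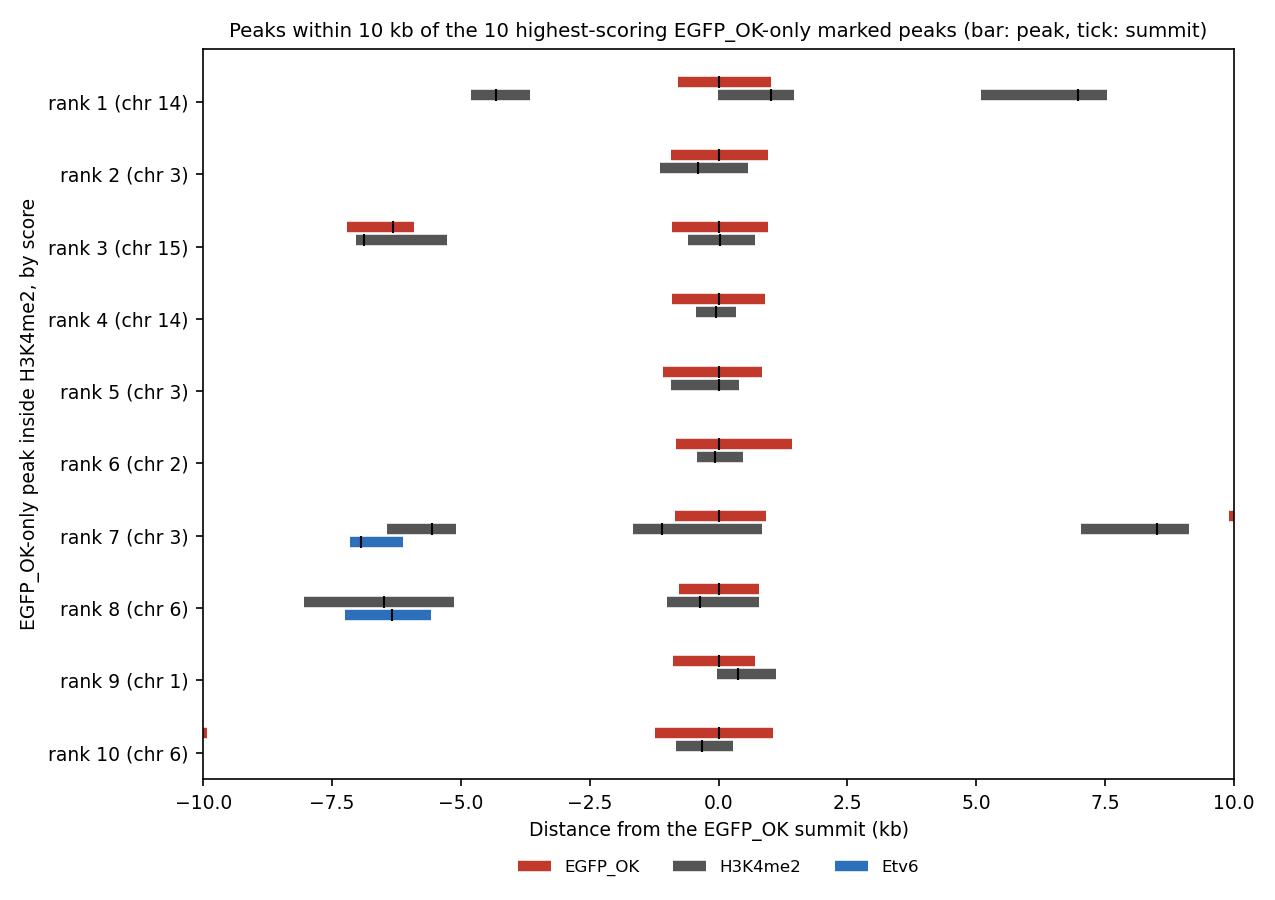
Peaks of the EGFP_OK, H3K4me2, Etv6 and Pax6 lists within 10 kb of the EGFP_OK summit of the 10 highest-scoring regions, one region per row with its chromosome (horizontal axis, distance from the EGFP_OK summit in kb; bars are peaks, ticks are summits, cut at the window's ends). Etv6 peaks appear in 2 of the 10 rows, to the left of the regions of rank 7 and 8, and Pax6 peaks in 0.

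By fold enrichment, 5 further regions stood highest among those with at least the median tag count. They lay on chromosome 10 from 74310699 to 74311965 (20.64-fold, 146 tags), chromosome 11 from 81118878 to 81120151 (20.61-fold, 147 tags), chromosome 13 from 48225550 to 48226906 (19.92-fold, 150 tags), chromosome 8 from 50432879 to 50434282 (19.72-fold, 173 tags) and chromosome 9 from 70576794 to 70578977 (19.59-fold, 244 tags). The one on chromosome 11 was the most isolated of the 5, at 427544 bp from the nearest Etv6 and 489719 bp from the nearest Pax6 peak. The one on chromosome 13 lay on the H3K4me2 peak with the highest fold of the 5, 9.03, with 169 tags, while those on chromosomes 8 and 9 lay on wider H3K4me2 peaks with 296 and 291 tags.

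The 14 H3K4me2 peaks that held 2 of the regions were between 1649 and 6932 bp wide, with a median of 4589 bp, and 12 of them were over 3 kb. Of these the pair with the most EGFP_OK tags lay in an H3K4me2 peak of 4991 bp on chromosome 7 from 111919023 to 111924013, with 668 H3K4me2 tags. It held one EGFP_OK peak of 166 tags at 10.35-fold, with the summit 211 bp from the H3K4me2 summit, and another of 84 tags at 4.74-fold, 2067 bp from it. The next 4 by EGFP_OK tags lay on chromosome 11 from 5636436 to 5642683, chromosome 7 from 112627826 to 112632249, chromosome 1 from 173366732 to 173372005 and chromosome 13 from 96303621 to 96306628. In each of these 4 both EGFP_OK peaks held between 60 and 95 tags.

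The densest window of 100 kb held 5 of the regions, on chromosome 13 from 22000001 to 22100000. It also held 10 H3K4me2, 5 Etv6 and 0 Pax6 summits, and 8 EGFP_OK summits in all. These 5 were weak in fold, between 3.77 and 5.04, with 36 to 208 tags. A window on chromosome 3 from 61200001 to 61300000 held 4 regions, at 4.22-fold to 10.29-fold, with 7 EGFP_OK, 7 H3K4me2, 2 Etv6 and 0 Pax6 summits. A window on chromosome 15 from 10600001 to 10700000 held 4, of which one reached 18.63-fold with 180 tags (10687978 to 10689417) and the others 6.20-fold to 6.84-fold. This window held 5 EGFP_OK, 7 H3K4me2, 4 Etv6 and 1 Pax6 summits.

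The share of EGFP_OK-only peaks inside H3K4me2 varied between chromosomes. It was highest on chromosome 7, at 21.3% (18.3 to 24.5), chromosome 11, at 20.98% (18.6 to 23.5), and chromosome 19, at 19.9% (16.4 to 23.7), and lowest on chromosomes 8, at 10.7% (8.58 to 13.2), and 12, at 10.8% (8.95 to 12.9), beside 14.2% in all. These chromosomes are named after their values were seen. The EGFP_OK-only peaks were unequally placed to begin with: chromosome 7 held 3.22% of them but 5.38% of the H3K4me2 peaks, and chromosome 3 held 10.1% of them and 7.18% of the H3K4me2 peaks. Counted as shares of the H3K4me2 peaks instead, 5.48% (4.64 to 6.42) on chromosome 7 held an EGFP_OK-only summit, against 8.04% (7.16 to 8.99) on chromosome 3 and 8.20% (7.19 to 9.30) on chromosome 6, with the lowest, 3.39% (2.69 to 4.21), on chromosome 8. Chromosome 7 thus stood first by one denominator and below the value of 6.18% for all by the other, and only chromosome 8 was at the lowest place by both.

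**Figure D5:**
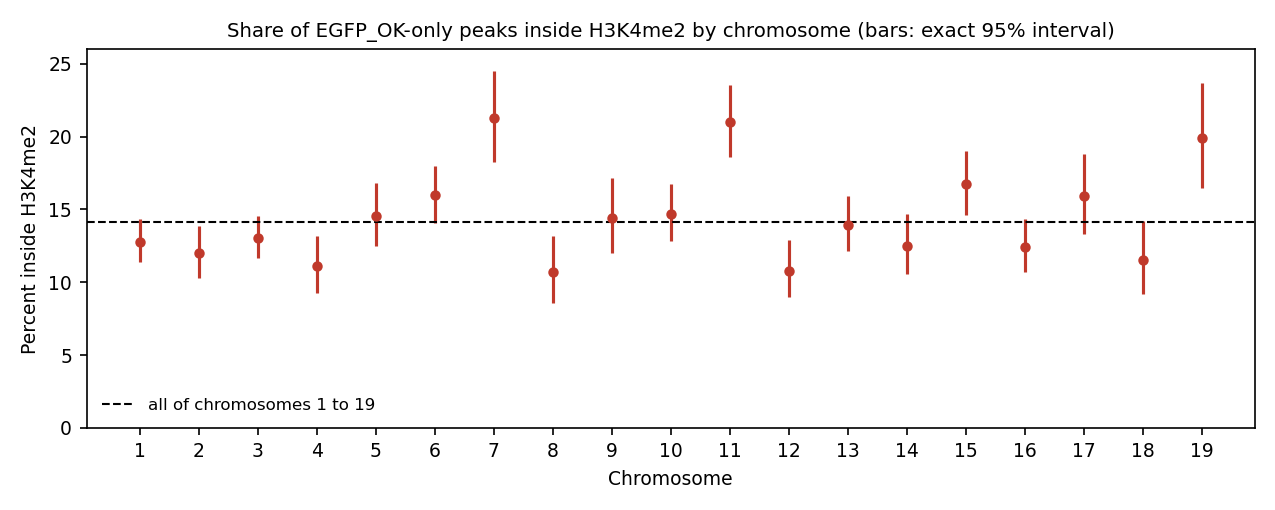
Percent of the EGFP_OK-only peaks of each chromosome (horizontal axis) whose summit lay inside an H3K4me2 peak (vertical axis), with exact 95% binomial intervals; the dashed line is the 14.2% of chromosomes 1 to 19 together. Chromosomes 7, 11, 15 and 19 lie above the line with their whole interval, and chromosomes 2, 4, 8 and 12 below it.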

How the data were processed

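Peaks were called on each library alone by MACS 1.4.2 without a control, per the file headers, with a p cutoff of 1e-05, a local background range of 10 kb, at most 1 tag per position and tags of 75 bp. The submitters' processing notes also name CASAVA 1.8.1, BWA 0.6.2 and build mm9. The authors deposited, per peak, the count of tags, a score (10 times −log10 of the p-value) and a fold enrichment (a ratio), all without normalization between libraries; the score and the fold are those of the authors. Libraries had 27560633 to 35255051 tags, with redundant rates of 16% to 81%.

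The rule was applied in Python 3.11.15 with pandas 2.3.3 and scipy 1.17.1. It was tested on the EGFP_OK peaks with planted H3K4me2 and Etv6 peaks and an empty Pax6 list. On the real lists, Pax6 included, bedtools 2.31.1 gave the same regions. Samples were grouped by title. Intervals of shares are exact binomial (Clopper-Pearson) and those of medians are binomial order-statistic intervals, both at 95%. Tags without molecular identifiers are not independent molecules. Named regions are the 10 with the highest score, the 5 further ones with the highest fold at or above the median tag count, the 5 H3K4me2 peaks and the 3 windows of 100 kb with the most members, ties being broken by the members' summed EGFP_OK tags. The members, lists and rules were chosen with earlier results of these data known. Planned gene and motif counts were not run, since no mm9 genome or annotation was used here.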

Additional observations from a re-analysis of the deposited data

Results flagged for a closer look

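On chromosome X, which the rule leaves out, 32 of 608 EGFP_OK peaks, 5.26% (3.63 to 7.35), overlapped no Pax6 or Etv6 peak and had their summit inside H3K4me2. They stand here because this is data outside the main measurement and the count is above 3, the limit that a count of 0 allows, which is no expected number. They held a median of 55.5 tags at 6.285-fold. On chromosome Y and unplaced sequences 0 of 38 EGFP_OK peaks did so.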

How the results depend on the processing

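Each of the 9 summary values was recomputed under 8 alternatives, and with 1 library per group a value counts as moved when it left its counting interval. None of the 9 did so with chromosome X included, which added only 32 regions to the 3014, or with EGFP_OK peaks over 3 kb left out. With exclusion only by an overlap of at least 50%, the share of EGFP_OK peaks that met the rule was 12.3%, their median tag count 50, the median distance to the nearest Etv6 peak 13194.5 bp and to the H3K4me2 summit 335 bp, the median width of the H3K4me2 peaks 1999 bp, the share with another such region within 50 kb 25.9%, and the share of their H3K4me2 peaks with a Pax6 or Etv6 summit 16.4%. With exclusion also within 1 kb, the share was 9.91%, the Etv6 distance 19045 bp, the width 1872 bp, the share with a neighbour 21.1% and that with a Pax6 or Etv6 summit 1.90%. With EGFP_OK scores of at least 100 the values were 9.22%, 76 tags, 8.48-fold, 18512 bp from Etv6, a width of 1797.5 bp, 9.44% with a neighbour and 6.01% with a Pax6 or Etv6 summit. With Pax6 and Etv6 scores of at least 100 they were 17.5%, 38389 bp from Etv6, 339 bp from the H3K4me2 summit, 14.04% within 100 bp of it, a width of 2117.5 bp, 34.1% with a neighbour and 2.32% with a Pax6 or Etv6 summit. Here the Etv6 distance and the last share count only Pax6 and Etv6 peaks of that score. With H3K4me2 scores of at least 100 they were 8.70%, 342 bp, 14.3% within 100 bp, 2099 bp wide and 18.9% with a neighbour. With any overlap with H3K4me2 in place of the summit they were 12.8%, 381 bp, 13.3% within 100 bp, 1860 bp wide, 25.9% with a neighbour and 9.17% with a Pax6 or Etv6 summit. Stricter lists hold fewer peaks by construction, and the cause of the other shifts was not tested. The fewer kept tags of the Pax6 library limit what a missing Pax6 peak shows. No paired analysis was possible because each group held 1 library and no result comes from a test.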
